A study of Homo sapiens with 14 samples.

Results

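The mucosal secretory and surface proteins described here are 10 genes: the transmembrane mucins MUC1, MUC4, MUC13 and MUC20, the surface protein SUSD2, the polymeric immunoglobulin receptor PIGR, the secretory pathway protein AGR2, the trefoil peptide TFF3, and the adhesion molecules CEACAM1 and CEACAM6. They were taken by symbol, MUC1 and SUSD2 for their levels in DU145 cells, PIGR for its level in LNCaP cells, and the others as their functional companions. All 10 were found among the 44591 genes listed for LNCaP and among the 24199 features listed for DU145. RNA was sequenced from LNCaP and DU145, both human prostate cancer cell lines. In LNCaP, 1 library of parental cells was set against 1 library of LNCaP-ENZ, cells kept for 30 days in 20 µM enzalutamide, a hormone-blocking medicine for prostate tumours. In DU145, 3 libraries of cells carrying a control hairpin (shCON) were set against 3 of cells with a short hairpin RNA against the transcription factor PAX6 (shPAX6). The study made more than 1 PAX6 hairpin, and the labels do not say which was sequenced. An effect of the hairpin itself cannot be told apart from that of lowered PAX6. The hairpins were delivered by lentivirus with puromycin selection, and the paper calls the resulting cells stable subclone lines. Whether these were mixed pools or single clones is not stated. Nothing in the sources used here says that the DU145 libraries came from separate cultures, and p-values then measure only the spread between these libraries.

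Mucosal epithelia are covered by secreted and membrane-bound mucins, heavily O-glycosylated proteins that hold a protective layer at the apical surface. MUC1 and its relatives also carry cytoplasmic tails or growth factor-like domains that touch receptor signalling, and many of them are overexpressed in carcinomas. PIGR carries polymeric antibodies across the epithelium and sheds its ectodomain as secretory component, AGR2 is a disulphide isomerase needed for mucin folding, and TFF3 is co-secreted with mucins in mucosal repair.

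The DNA just upstream of a gene's start shows which general elements its promoter carries, and the windows of the members with the most marked values are shown first. RefSeq promoter entries on GRCh38.p14 were matched for 7 of the 10 members. SUSD2, MUC20 and TFF3 had no entry. For MUC1 (chr1:155192916-155193165, minus strand), PIGR (chr1:206946467-206946716, minus strand) and CEACAM1 (chr19:42528482-42528731, minus strand), the 250 bases before the start read, 5′ to 3′, as given here. Capitals mark GC boxes and the TATA box in MUC1, the ETS core in PIGR and the interferon response element core in CEACAM1.
MUC1: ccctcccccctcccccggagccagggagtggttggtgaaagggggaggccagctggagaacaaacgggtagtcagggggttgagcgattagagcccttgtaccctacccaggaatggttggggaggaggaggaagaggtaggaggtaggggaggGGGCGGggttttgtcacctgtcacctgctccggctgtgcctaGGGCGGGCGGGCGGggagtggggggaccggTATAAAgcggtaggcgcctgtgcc
PIGR: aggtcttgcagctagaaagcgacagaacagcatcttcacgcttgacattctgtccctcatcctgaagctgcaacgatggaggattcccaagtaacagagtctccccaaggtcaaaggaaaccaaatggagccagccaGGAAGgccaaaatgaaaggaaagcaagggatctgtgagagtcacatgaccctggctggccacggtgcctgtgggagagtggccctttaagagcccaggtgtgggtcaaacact
CEACAM1: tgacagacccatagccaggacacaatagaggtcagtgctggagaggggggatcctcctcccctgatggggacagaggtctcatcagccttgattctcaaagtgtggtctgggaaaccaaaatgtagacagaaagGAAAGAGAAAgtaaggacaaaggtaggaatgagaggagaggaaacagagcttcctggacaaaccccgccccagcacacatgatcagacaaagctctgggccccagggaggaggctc

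Motifs were searched on both strands, and positions count back from the base before the start. The MUC1 window held 4 GC boxes (GGGCGG), beginning at positions -96, -54, -50 and -46, of which the last 3 overlap, and a TATA box (TATAAA) beginning at -24. A GC box was found in 42.6% and a TATA box in 10.7% of all 35116 promoter windows. The PIGR window held neither of these. It held only the ETS core (GGAAG), at -113, which occurred in 65.1% of all windows. The interferon response element core (GAAANNGAAA) was found in CEACAM1 alone among the 7 members, at -116, against 3.02% of all windows, and the STAT site (TTCNNNGAA) in MUC4 alone, at -11, against 6.57%. The full estrogen response element (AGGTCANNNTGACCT) was not in any of the 7 windows and occurred in 0.00285% of all windows. The GC content of the windows ran from 40.4% in AGR2 and 41.6% in MUC13 to 66% in MUC1, against a median of 58% over all promoters. The windows of CEACAM1 and CEACAM6, genes of the same family, were 68.2% identical in a global alignment, and the other pairs of members lay between 44.2% and 54.7%. These matches describe the sequence and do not show that any factor was bound.

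The depth of the LNCaP libraries was 20468001 counts in parental cells and 17945722 in LNCaP-ENZ. DU145 values are FPKM, and the depth behind them is unknown. The sums over all features ran from 470857 to 485479 in shCON and from 448901 to 570790 in shPAX6. PAX6 itself stood at 0.839, 1.23 and 1.57 FPKM in shCON and at 0.0153, 0.274 and 0.0778 FPKM in shPAX6, and the groups did not overlap. Its log2 fold change was -2.69 ± 0.486 (SE), which missed the threshold (limma, adjusted p = 0.0539). Both lines carried the epithelial keratins KRT8 and KRT18. In DU145, 6 of the 9 prostate luminal markers lay under 0.5 FPKM in every library, among them KLK3, which gave 1817 and 1186 counts in the LNCaP libraries. The intestinal markers, relevant because several members mark the gut, summed to at most 0.128 FPKM in any DU145 library, with CDX2, CDH17 and LGR5 listed at 0 in all 6, and to 25 and 10 counts in LNCaP. Leukocyte markers summed to 2.35 to 3.27 FPKM in shCON and 1.35 to 3.52 FPKM in shPAX6, carried mainly by CD79A, CD14 and LST1, with PTPRC and CD3E listed at 0. In LNCaP they summed to 50 and 57 counts, of which PTPRC gave 23 and 28 and CD3E 15 and 19.

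In DU145 cells the question was which of these genes differed between the control hairpin and the PAX6 hairpin. Only MUC1 and SUSD2 were at levels that could be tested, with a mean of at least 0.5 FPKM, and both were several-fold lower in shPAX6. The other 8 members lay below that level in both groups. MUC1, the transmembrane mucin of most glandular epithelia, is at 155158300 to 155162706 on the minus strand of chromosome 1 (GRCh37, as listed for LNCaP), where the annotation also places an unnamed protein-coding model on the same strand. It measured 23.4, 28.1 and 28.4 FPKM under the control hairpin and 3.67, 2.19 and 2.54 FPKM under the PAX6 hairpin. The lowest control library was thus well above the highest knockdown library. The means were 26.6 ± 2.82 and 2.80 ± 0.776 FPKM (SD, n = 3 each), a 9.52-fold lower level, and the log2 fold change on the log2(FPKM + 0.1) scale was -3.23 ± 0.217 (SE), with a 95% interval from -3.74 to -2.73. In bulk RNA, fewer cells with a transcript and less of it per cell cannot be told apart.

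SUSD2 encodes a type I membrane protein with sushi and von Willebrand factor type D domains, the latter a fold that mucins also carry, and is at 24577444 to 24585074 on the plus strand of chromosome 22. It measured 7.64, 6.81 and 8.86 FPKM in shCON and 1.13, 0.964 and 1.07 FPKM in shPAX6. Again every knockdown library was below every control library, and the knockdown values were closer together than those of MUC1. The means were 7.77 ± 1.03 and 1.05 ± 0.0851 FPKM (SD, n = 3 each), a 7.37-fold lower level, with a log2 fold change of -2.76 ± 0.197 (SE) and a 95% interval from -3.22 to -2.30. In the order of mean FPKM over the 24199 features, MUC1 went from rank 3055 in shCON to 9444 in shPAX6, and SUSD2 from rank 6731 to 11733. Of all 13574 tested features, 1.02% passed the threshold as lower and 0.177% as higher (limma, adjusted p under 0.05), and 20.0% were lower with groups that did not overlap. Because MUC1 and SUSD2 were named for this contrast, their values are a description and no test is attached to them.

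Among the 3 shPAX6 libraries, MUC1 was highest in library 1, where PAX6 was lowest, and lowest in library 2, where PAX6 was highest. SUSD2 varied over a narrower range, from 0.964 to 1.13 FPKM, with the libraries in the same order as for MUC1. The FPKM sums over all features had that order too, at 570790 in library 1, 503696 in library 3 and 448901 in library 2. PAX6 was at low levels in all of these libraries, and whether the orders are linked was not tested. Leaving out each library in turn moved the MUC1 log2 fold change between -3.44 and -3.08 and that of SUSD2 between -2.85 and -2.67. Fold changes in this table fell with the GC content of the transcript (Spearman's rho -0.363 across 12009 features, which are not independent replicates), and MUC1 and SUSD2 transcripts were 58.6% and 63.4% GC. After a correction for GC content per library the log2 fold changes were -3.07 for MUC1 and -2.55 for SUSD2.

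**Figure D1:**
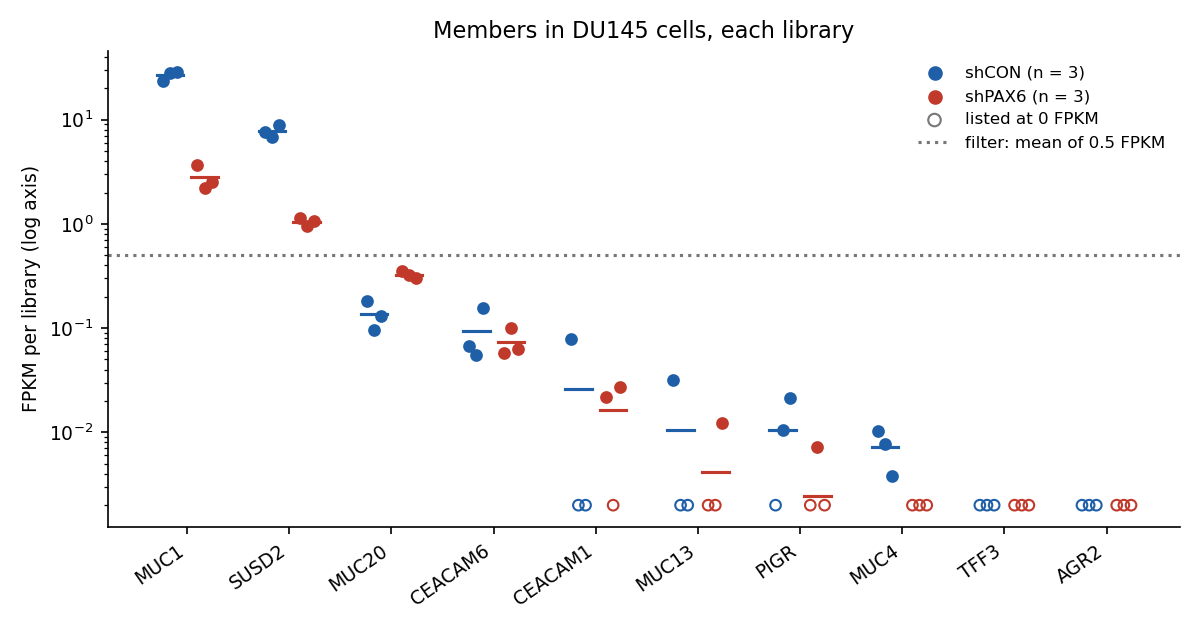
FPKM (log axis) of the 10 members in each DU145 library, blue for shCON and red for shPAX6 (n = 3 each), with short lines at the group means, hollow points at the bottom for values listed at 0 and a dotted line at the 0.5 FPKM filter. MUC1 and SUSD2 separate into high control and low knockdown libraries, MUC20 separates in the opposite direction below the filter, and AGR2 and TFF3 are at 0 throughout.

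MUC20, a transmembrane mucin that binds the receptor tyrosine kinase MET, was the only other member whose groups separated upwards. It measured 0.181, 0.0969 and 0.130 FPKM in shCON and 0.351, 0.327 and 0.301 FPKM in shPAX6. All 6 values lay under the filter, where 2.80% of 6998 features were higher with groups that did not overlap. The group means were 0.136 ± 0.0423 and 0.326 ± 0.0249 FPKM (SD, n = 3 each). MET measured 20.8, 16.7 and 19.5 FPKM in shCON and 12.1, 37.2 and 18.9 FPKM in shPAX6, groups that overlapped, with a log2 fold change of 0.11 ± 0.369 (SE). MUC20 overlaps the transcript MUC20-OT1 on the same strand and has a pseudogene copy nearby, so its reads may be split between them.

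The remaining members were barely detected in DU145. MUC4, the large membrane mucin that partners ERBB2, stood at 0.0102, 0.00765 and 0.00384 FPKM in shCON and was listed at 0 in all 3 shPAX6 libraries. Such a separation downwards at low levels was found in 10.3% of the features under 0.5 FPKM. CEACAM6, a lipid-anchored adhesion molecule of mucosal cells, ranged from 0.0548 to 0.157 FPKM in shCON and from 0.0571 to 0.1005 FPKM in shPAX6, with overlapping groups. CEACAM1, the cell adhesion and inhibitory receptor of the same family, was at most 0.0778 FPKM, in shCON library 1, and was listed at 0 in 3 of the 6 libraries. MUC13, a mucin of the intestinal brush border, was listed at 0 in 4 of 6 libraries with a highest value of 0.0316 FPKM, and PIGR in 3 of 6 with a highest value of 0.0213 FPKM. AGR2 and TFF3 were listed at 0 in all 6 libraries, whereas none of the values of 6 housekeeping genes was at 0. Apart from MUC1 and SUSD2, DU145 cells therefore carried little RNA of these genes in either group.

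No gene flanking MUC1 came near its fold change. Of the 13 tested protein-coding genes within 100 kb of MUC1, log2 fold changes ran from -0.69 (DPM3) to 0.25 (KRTCAP2) with a median of -0.25, and 0 passed the threshold (limma, adjusted p). The adjoining TRIM46 and THBS3 had log2 fold changes of -0.38 and -0.33. Near SUSD2, the nuclear protein CABIN1 had 9.39 ± 1.04 FPKM in shCON and 6.01 ± 0.534 FPKM in shPAX6 (SD, n = 3 each). Its groups did not overlap, and its log2 fold change of -0.63 missed the threshold (limma, adjusted p = 0.106), while SPECC1L had -0.34 (limma, adjusted p = 0.612). GGT5, also near SUSD2, lay under the 0.5 FPKM filter and was not tested. It had 0.2243 ± 0.1315 FPKM in shCON and 0.0166 ± 0.0154 FPKM in shPAX6 (SD, n = 3 each). Its groups did not overlap, a separation downwards found in 10.3% of features under 0.5 FPKM. These flanking genes were picked by distance, and only those past the filter were tested.

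The 3 features nearest to each of these genes in profile over the 6 libraries were picked by the root mean square distance of log2 values centred on their own mean. For MUC1 they were S100A9, a calcium-binding protein of myeloid and stressed epithelial cells, at a distance of 0.218, the membrane-associated PALM at 0.289 and the interferon-induced OASL at 0.300. For SUSD2 they were OASL at 0.077, PALM at 0.148 and OGDHL, a relative of 2-oxoglutarate dehydrogenase, at 0.234. S100A9 averaged 4.86 FPKM in shCON and 0.561 in shPAX6, PALM 8.40 and 1.18, OASL 16.2 and 2.40, and OGDHL 2.43 and 0.356. These features were selected for their likeness to MUC1 and SUSD2 over the 6 libraries, and no test is attached to it.

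The companion genes that build, carry and control this group of proteins were next examined in DU145. Of 141 such genes listed, 70 were tested, and 4 passed the threshold (5.71%), against 1.20% of all tested features. The epithelial transcription factor ELF3, the adherens junction cadherin CDH1 and the junction protein JUP fell, and MYO5B, a motor of apical recycling, rose. Groups did not overlap for 35 of the 70 (50%), 34 of them lower, against 26.7% of all tested features. The median log2 fold change over the 70 was -0.40 and over all tested features -0.12. The companion lists were drawn up with earlier results of these data known, so these shares are a description and no test of the lists. The number called moved with the libraries. With shCON library 1, 2 or 3 or shPAX6 library 3 left out, each in turn, 0 of the 70 were called (limma), while 18 were called without shPAX6 library 1 and 15 without shPAX6 library 2.

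ELF3, an ETS factor of mucosal epithelia, showed the smallest adjusted p. It measured 10.6, 10.8 and 10.8 FPKM in shCON and 3.56, 3.90 and 4.27 FPKM in shPAX6, a log2 fold change of -1.44 ± 0.154 (SE, limma, adjusted p = 0.0145). CDH1 measured 6.27, 5.24 and 6.91 FPKM in shCON and 0.654, 1.56 and 1.57 FPKM in shPAX6, with -2.28 ± 0.340 (SE, limma, adjusted p = 0.0334). The knockdown groups of both genes lay well below the controls. JUP, plakoglobin, a partner of the MUC1 tail, measured 23.2, 24.1 and 29.0 FPKM in shCON and 13.1, 13.1 and 14.0 FPKM in shPAX6, with -0.91 ± 0.141 (SE, limma, adjusted p = 0.0370). MYO5B went the other way, from 2.14, 2.22 and 1.73 FPKM to 4.96, 5.49 and 5.11 FPKM, with 1.32 ± 0.189 (SE, limma, adjusted p = 0.0304). JUP lost its call after GC correction (limma, adjusted p = 0.0949), after median centring (limma, adjusted p = 0.104) and without the trend in eBayes (limma, adjusted p = 0.0503). MYO5B, CDH1 and ELF3 kept theirs under each of these. With the replicate number as a block none of these genes was called (limma, adjusted p = 0.219 for JUP and MYO5B, 0.169 for ELF3 and CDH1). CDH1 missed the threshold without a filter on low values (limma, adjusted p = 0.062).

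By role, 1 of 16 other mucins was tested, OVGP1, with a log2 fold change of 0.28. Of 29 other secretory products 4 were tested, all with lower values, 0 called and a median of -0.81. The antiprotease SLPI had 3.55, 3.73 and 2.75 FPKM in shCON and 1.67, 0.343 and 0.953 FPKM in shPAX6 (log2 fold change -1.86, limma, adjusted p = 0.107), and the iron-scavenging lipocalin LCN2 had -0.99 (limma, adjusted p = 0.15). Their groups did not overlap, but neither passed the threshold. FCGBP and WFDC2, a mucus protein and a protease inhibitor, had -0.64 and -0.53 with overlapping groups. Of 10 other CEACAM genes CEACAM19 alone was tested, at -0.05.

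The enzymes that put O-glycans on mucins had 15 tested genes, 0 called and a median of -0.14. B3GNT3, which extends core 1 glycans, had -1.04 (limma, adjusted p = 0.0696) and the initiating transferase GALNT6 -0.64, while GALNT7 and GCNT3 had 0.36 and 0.32. Among the 15 tested mucin partners and sheddases 1 was called, JUP, with a median of -0.47. The membrane protease MMP14, a MUC1 sheddase, had -0.89 (limma, adjusted p = 0.0540), and LGALS1 and ADAM9 had 0.47 and 0.33. The 15 tested genes of PIGR transport and induction had a median of -0.24, with MYO5B called. The interleukin 4 receptor IL4R had -1.12 (limma, adjusted p = 0.0642) and RELB -0.79, against 0.13 for RAB11A. Of 6 tested transcription factors ELF3 was called, CREB3L4 had -0.47, and FOXA1 and KLF4 had 0.13 and 0.04. The 13 tested apical surface proteins had a median of -0.55 with CDH1 called. In that list the protease ST14 had -1.60 (limma, adjusted p = 0.0540), and PSCA and TSPAN1 had 0.31 and 0.15.

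STAT5A, a transcription factor whose family binds STAT sites, fell in the same libraries from 6.39, 5.68 and 6.80 FPKM to 1.99, 2.91 and 2.82 FPKM. Its log2 fold change was -1.27 ± 0.210 (SE, limma, adjusted p = 0.0423). The paper singled out STAT5A from RNA sequencing of this same contrast, so its p-value is a description and no independent test. With shCON library 1 or 3 left out, 0 features were called (limma). The MUC1 window printed above held no STAT site, and this says nothing of STAT5A binding elsewhere. The summed mesenchymal markers ran from 974 to 1104 FPKM in shCON and from 1311 to 1687 FPKM in shPAX6, nearly all of it VIM, and their part in these differences was not tested.

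In LNCaP the question was how the same genes differed after long enzalutamide exposure. There was 1 library per arm, so the differences have no replicate check, no test was made, and intervals cover counting error only. Values are counts scaled to the library total (CPM), and genes with a mean of at least 1 CPM are called expressed. Of the 10 members 7 were expressed, and 2 of them, PIGR and CEACAM1, were higher by at least 2-fold in LNCaP-ENZ, against 1.84% of all 14767 expressed genes. PIGR was named for this difference, so its place in that count was fixed beforehand and the count is only a description. None of the 7 was lower by 2-fold, against 9.57% of expressed genes. The median log2 ratio of the 7 was 0.61, which is the value of MUC13, a gene that passed 1 CPM only through LNCaP-ENZ, and over all 10 members without the filter it was -0.21. That of all expressed genes was -0.15. TMM and DESeq2 scaling moved the ratios of well-counted genes up by 0.15 and 0.17, and those of genes near 0 counts by less.

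PIGR, at 207101867 to 207119811 on the minus strand of chromosome 1 (GRCh37), gave 1308 counts in parental LNCaP and 16738 in LNCaP-ENZ. This was 63.9 CPM (95% counting interval 60.5 to 67.5) against 933 CPM (919 to 947), a 14.6-fold higher level with a counting interval from 13.8 to 15.4. The log2 ratio was 3.87, and by it PIGR ranked 7 among the expressed genes. Per length, its deposited TPM went from 15.6 to 215, which moved it from rank 3754 to rank 216 of the 44591 listed genes. Its share of all counts went from 0.00639% to 0.0933%. PIGR was chosen for this difference, which is given as a description. Every alternative tried gave a log2 ratio between 3.77 and 4.04.

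**Figure D2:**
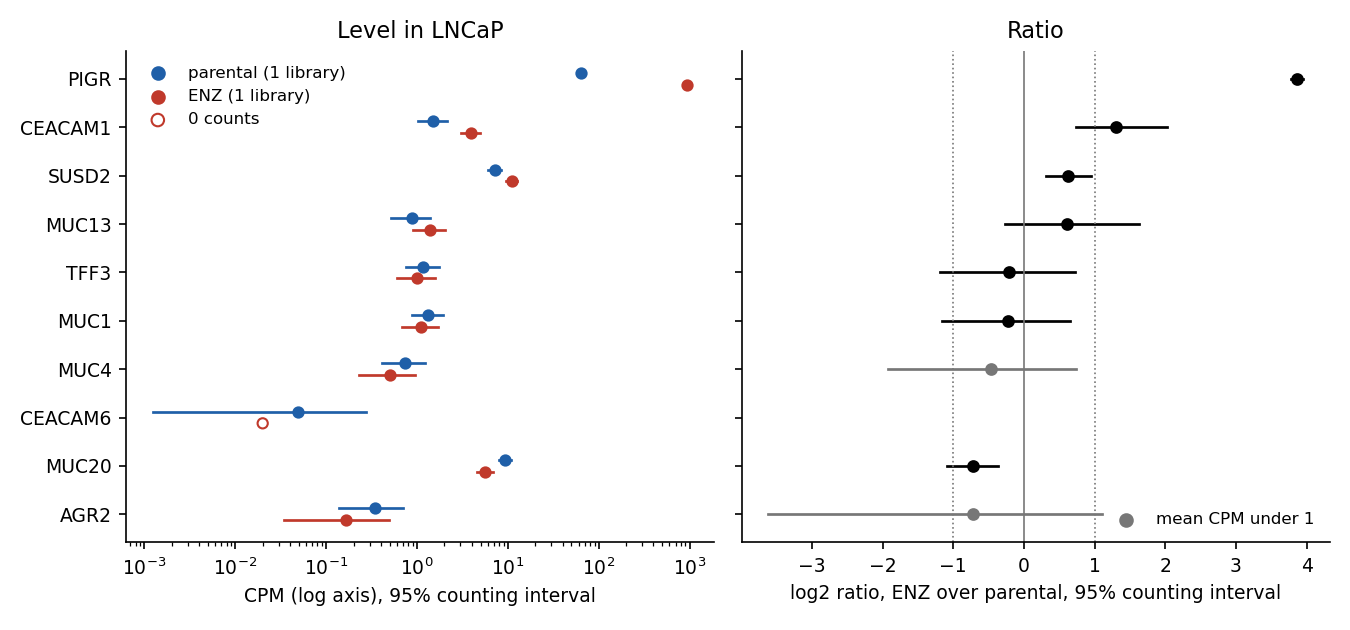
Left, CPM (log axis) of the 10 members in parental LNCaP (blue) and LNCaP-ENZ (red), 1 library each, with 95% counting intervals and a hollow point for 0 counts. Right, log2 ratio of LNCaP-ENZ over parental with its counting interval, dotted lines at 2-fold and grey for members under 1 CPM; PIGR alone lies near 4, CEACAM1 lies at 1.31 and the other members lie within 1 of 0, CEACAM6 having no ratio drawn.

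CEACAM1, at 43011458 to 43032661 on chromosome 19, gave 31 counts in parental cells and 70 in LNCaP-ENZ, a log2 ratio of 1.31 with a counting interval from 0.74 to 2.02. Over the alternatives its log2 ratio lay between 0.96, with a pseudocount of 1 CPM and no longer past 2-fold, and 1.47. CEACAM1 overlaps the pseudogene CEACAMP2 on the same strand, so reads may be split between them, and LIPE-AS1 on the opposite strand, and whether the counting used strand is not given in the sources used here. SUSD2 gave 147 and 199 counts, a log2 ratio of 0.62 (0.31 to 0.94). Its direction was therefore the reverse of that in DU145 shPAX6, but the arms of LNCaP have no replicates and the contrasts differ, so the difference was not tested. MUC13 gave 18 and 25 counts, 0.61 (-0.27 to 1.62), an interval that includes no change.

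MUC20 gave 191 and 101 counts, a log2 ratio of -0.72 (-1.09 to -0.37), and MET gave 295 and 235 counts, -0.14 (-0.39 to 0.11). MUC1 gave 27 and 20 counts in LNCaP, a log2 ratio of -0.23 with a counting interval from -1.15 to 0.65. A difference in MUC1 of less than about these bounds was not detectable at this depth. TFF3 gave 24 and 18 counts, -0.21 (-1.19 to 0.72). MUC4 with 15 and 9 counts, AGR2 with 7 and 3 and CEACAM6 with 1 and 0 lay under 1 CPM, and 0 counts of CEACAM6 in LNCaP-ENZ allow up to 0.167 CPM, the level of 3 counts, while its 95% counting interval reaches 0.206 CPM.

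Per length, the order of the members by TPM in parental LNCaP was PIGR 15.6, MUC20 3.76, SUSD2 2.36, TFF3 1.16, MUC1 0.749, CEACAM1 0.438, AGR2 0.363, MUC13 0.319, MUC4 0.0455 and CEACAM6 0.0196. The counting intervals kept PIGR, MUC20 and SUSD2 apart from each other and from the rest. Those of MUC1, CEACAM1, AGR2 and MUC13 overlapped one another, and that of TFF3 overlapped those of MUC1 and AGR2. The intervals of MUC4 and CEACAM6 overlapped too. In LNCaP-ENZ SUSD2, at 3.43 TPM (2.97 to 3.94), stood above MUC20, at 2.14 TPM (1.74 to 2.60), and CEACAM1, at 1.06 TPM, stood beside TFF3, at 0.936 TPM, with overlapping intervals. By rank over each table, MUC1 was at 3055 of 24199 features in DU145 shCON and at 15268 of 44591 genes in parental LNCaP, and PIGR was at 19145 and at 3754. The tables were made and scaled separately and list different sets of features. These ranks therefore place a gene within its own table and do not measure a difference in level between the lines.

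Of the 7 protein-coding genes within 100 kb of PIGR 3 were expressed. FCMR, an immunoglobulin M receptor gene next to it, gave 114 and 177 counts with a log2 ratio of 0.81, whereas C1orf116 gave 4428 and 1919 counts with -1.02 and YOD1 gave 313 and 114 with -1.25. FCAMR, on the other side of PIGR, had 0 and 4 counts. None of the 3 expressed genes came near the ratio of PIGR.

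**Figure D3:**
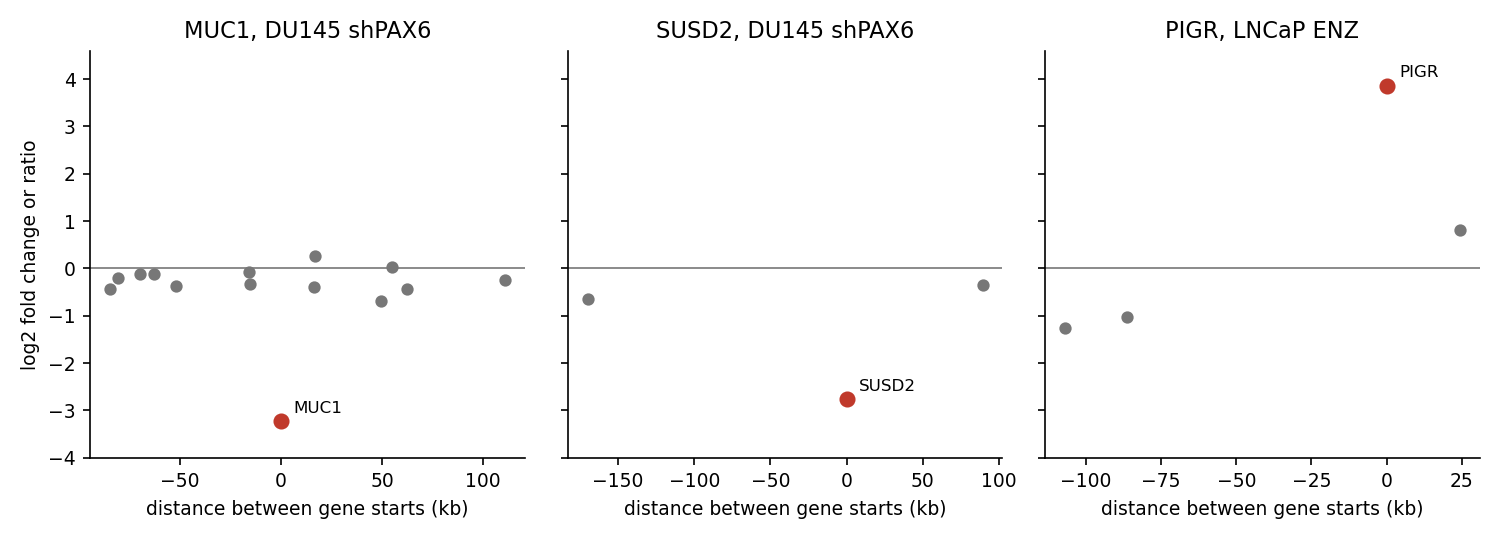
Log2 fold change in DU145 of the tested genes around MUC1 (left) and SUSD2 (middle) and log2 ratio in LNCaP of the expressed genes around PIGR (right), against the distance between gene starts in kb along the direction of transcription. The named gene is red in each panel, at -3.23, -2.76 and 3.87, and the grey neighbours lie between -1.25 and 0.81.

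Among the companion genes 73 were expressed in LNCaP, and 7 were past 2-fold, 1 higher (1.37%) and 6 lower (8.22%), against 1.84% and 9.57% of all expressed genes. These shares moved with the scaling. With TMM factors 4 were higher (5.48%) and 6 lower (8.22%), against 2.71% and 6.65% of all expressed genes, and with DESeq2 size factors 4 were higher and 4 lower (5.48% each), against 2.95% and 6.21%. The apical tetraspanin TSPAN8 was higher, at a log2 ratio of 1.32 (0.57 to 2.34) from 17 and 40 counts. Like MUC13, TSPAN8 counted as expressed only because of its LNCaP-ENZ level, 2.23 CPM, since the parental library gave 0.83. With a pseudocount of 1 CPM, or with a mean CPM of at least 5 required, 0 companion genes were higher by 2-fold. The lower genes fell in 3 lists. Of the O-glycosylation enzymes they were the transferase GALNT7, with 554 and 131 counts (-1.88, counting interval -2.18 to -1.61), and the core 2 enzyme GCNT1, with 490 and 154 (-1.47, -1.75 to -1.22). Of the partners and sheddases they were the membrane proteases ADAM9, with 924 and 257 counts (-1.65), and ADAM10, with 1785 and 694 (-1.17). Of the transcription factors they were KLF4, with 318 and 106 counts (-1.38), and EHF, an ETS factor related to ELF3, with 8607 and 3371 (-1.16). In all 6 the counting interval lay below 0, but EHF and ADAM10 were no longer past 2-fold with DESeq2 size factors, at -0.99 and -0.999.

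The list of PIGR transport and induction had 15 expressed genes and a median log2 ratio of 0.05, and 0 of them were past 2-fold under scaling by the library total. The largest ratio in it was that of IRF1, a transcription factor that induces PIGR, with 198 and 344 counts (0.98, 0.73 to 1.25), which passed 2-fold with TMM factors (1.12) and DESeq2 size factors (1.15). RAB25 followed at 0.63. IFNGR1 and RAB11A were the lowest, at -0.71 and -0.56. The 6 expressed secretory products had a median of 0.17, with LCN2 at 0.95 (1162 and 1969 counts) and SLPI at 0.93 (612 and 1027 counts), both short of 2-fold here but past it with TMM factors (1.10 and 1.08) and DESeq2 size factors (1.12 and 1.11), and FCGBP and ZG16B at -0.23 and -0.15. LCN2 and SLPI thus had higher values in LNCaP-ENZ, where no test was possible, and lower values in DU145 shPAX6, where neither passed the threshold.

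Of the other mucins 3 were expressed, MUC5AC with 239 and 119 counts (-0.81), OVGP1 at -0.04 and MUC3A at 0.08, and of the other CEACAM genes none was. The median was -0.06 for the 14 O-glycosylation enzymes, in which GALNT10 and FUT3 were the highest at 0.50 and 0.36. It was -0.22 for the 13 partners and sheddases, in which LGALS1 was the highest at 0.16 and GRB2 stood at -0.001. It was -0.45 for the 9 transcription factors, with XBP1, the regulator of the secretory machinery, at 0.47 and GRHL2 at 0.09. It was -0.27 for the 13 apical surface proteins, with CLDN7 at 0.39, LYPD3 at -0.58 and PRSS8 at -0.41. In the same libraries the endothelial list went from 348 to 30 counts, of which VWF gave 345 and 27 while PECAM1 gave 3 and 3 and CDH5 0 and 0, and the mesenchymal list from 12762 to 20842 counts, of which FN1 gave 11349 and 19887, VIM 1394 and 938, ZEB1 17 and 10 and CDH2 2 and 7. Their part in these differences was not tested.

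**Figure D4:**
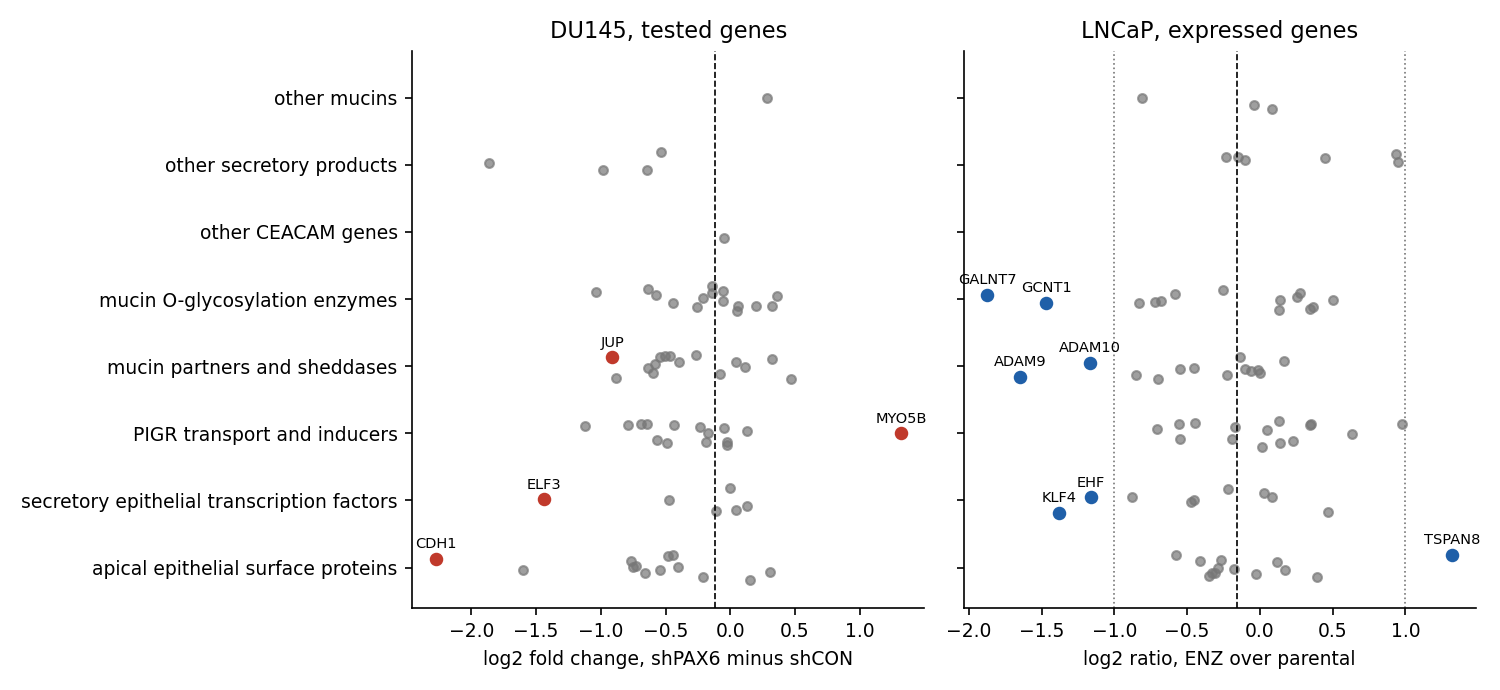
Log2 fold change of each tested companion gene in DU145 (left, shPAX6 minus shCON) and log2 ratio of each expressed companion gene in LNCaP (right, LNCaP-ENZ over parental), by list. Coloured and named points passed the adjusted p of 0.05 (red) or were past 2-fold with no test (blue), dashed lines mark the median of all tested features (-0.12) or expressed genes (-0.15), and 54 of the 70 DU145 points lie below 0.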

How the data were processed

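RNA sequencing of 2 LNCaP and 6 DU145 libraries was analysed, and the 6 ATAC-seq samples were not used here. Per the study's methods, reads were aligned to GRCh37 with HISAT2, quantified with StringTie and compared with DESeq2; the labels name another library kit. For LNCaP the authors deposited raw counts and TPM. For DU145 the values deposited by the authors carry no unit name and were treated as FPKM. The methods state 3 replicates per line, but the labels give 1 LNCaP library per arm.

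The members and all companion and marker lists were chosen with earlier results of these data known. DU145 values were fitted with limma 3.58.1 (eBayes with trend) on log2(FPKM + 0.1). The 13574 features averaging 0.5 FPKM or more were tested two-sided, and p-values were adjusted by Benjamini-Hochberg (threshold 0.05). In LNCaP, log2 ratios used CPM + 0.1 and exact Clopper-Pearson intervals (95%), and a gene counted as past 2-fold had a mean CPM of at least 1. A fold change on these scales understates that of low genes. Genes named from each list are the 2 largest rises and the 2 largest falls, and all called ones; flanking genes and markers with values were named outside that rule. Promoter sequences are from RefSeq. GC content was known for 88.5% of tested features (longest transcript, loess span 0.5). Alternatives were other pseudocounts (1 and 0.01), filters, scalings with edgeR 4.0.16 and DESeq2 1.42.0, GC correction, the replicate block and each library left out. The limma fit and the LNCaP counting intervals were tested on simulated data. Some markers and a motif searched are not reported here.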

Additional observations from a re-analysis of the deposited data

How the results depend on the processing

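In DU145, 163 features were called (24 higher, 139 lower). The count was 236 with a pseudocount of 1, 236 after quantile normalization (74 higher), 108 without a filter, 100 after median centring (28 higher) and 147 after GC correction (42 higher), and leaving out a library took it from 0 to 920. Companion genes called went from 4 to 7 with a pseudocount of 1, and to between 0 and 18 on leaving out a library. Deviations of same-numbered libraries from their group means correlated at -0.166, -0.366 and 0.052, so no pairing by replicate number was visible. Deviations within a group are tied to one another, and these values cannot settle whether libraries were prepared in pairs. With the replicate block 0 features and 0 companion genes were called, and with the block and GC correction 5 and 0. The log2 fold change of MUC1 was -2.88 with a pseudocount of 1. That of SUSD2 was -2.09 with a pseudocount of 1, -2.56 after quantile normalization, -2.59 after median centring and -2.55 after GC correction with or without the replicate block. Both stayed below -2 throughout. The median over the members was -2.998, -2.48 with a pseudocount of 1 and -0.10 without a filter, which admits 6 members near 0 FPKM. Of these 6 no member was called (limma) and 1, MUC20, had an unadjusted p under 0.05 (0.0116). In LNCaP, genes past 2-fold numbered 1684, 1054 with a pseudocount of 1, 874 at a mean CPM of at least 5 and 6120 without a filter, and companion genes 7 and 17 without a filter. The log2 ratio of PIGR was 4.01 with TMM, 4.04 with DESeq2 size factors, 4.02 with the median set to 0 and 3.77 from TPM. The median over the members was 0.61 and, without a filter, -0.21. The single LNCaP libraries leave replicate error unknown.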
